A study of Homo sapiens with 8 samples.

Results

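The MAL family of proteolipids was followed across 8 HEK293T stable cell lines. Its members were MAL, MAL2, MALL and PLLP, which were 4 of the 19483 named genes on the arrays, and each had 1 probe among the 34127 non-control probes. The probes were found through the RefSeq transcript they were designed on, which was NM_002371 for MAL, NM_052886 for MAL2, NM_005434 for MALL and NM_015993 for PLLP. The family was selected on these same array values, that is, on the signals and background flags of MAL and its relatives in the 4 constructs, so the values of the members are given as a description and no test of them is reported.

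HEK293T is an established human embryonic kidney cell line. All 8 lines were transfected with a pcDNA6/myc-His plasmid, selected with blasticidin S and expanded from single colonies, so that each array represents 1 clone. Empty vector #1 and #2 carried the plasmid with no insert. TET1-CDwt #2 and #5 carried the catalytic domain of TET1, an enzyme that oxidizes 5-methylcytosine, without a targeting domain. MBD-TET1-CDwt #3 and #10 carried a fusion of that domain with the part of MBD2 that binds methyl-CpG, and MBD-TET1-CDmut #9 and #10 carried the fusion with an inactivated catalytic domain. Cy3-labelled cRNA of each clone was hybridized to 1 single-colour Agilent array. The study asked which genes were switched on when the active domain was brought to methylated DNA.

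MAL family proteins are small hydrophobic proteins that cross the membrane several times and carry the MARVEL domain, a fold shared with proteins of tight junctions and synaptic vesicles. MAL resides in lipid rafts and takes part in apical transport in epithelial cells, in the delivery of the kinase LCK to the surface of T cells, and in the maintenance of myelin. MAL2 acts in transcytosis in hepatocytes and other polarized cells and binds proteins of the TPD52 family, MALL is found in rafts of endothelial and epithelial cells, and PLLP (plasmolipin) is a proteolipid of myelin and of epithelia.

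Promoter windows from RefSeq (GRCh38.p14, 250 bases before to 50 bases after a start site) were held for 3 of the 4 members, with 4 windows in all. They are shown because the methyl-CpG-binding domain recognizes methylated CpG, and the windows of the members differed widely in CpG number. Each sequence below is the 250 bases before the start site on the strand of the gene, with every CpG in capitals.
MAL, chr2:95025458-95025707, plus strand: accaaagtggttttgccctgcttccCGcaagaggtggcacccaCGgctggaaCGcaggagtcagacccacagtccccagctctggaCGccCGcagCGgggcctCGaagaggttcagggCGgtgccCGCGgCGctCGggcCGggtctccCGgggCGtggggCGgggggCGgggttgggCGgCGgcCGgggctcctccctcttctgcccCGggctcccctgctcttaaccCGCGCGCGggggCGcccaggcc
MALL promoter 1, chr2:110118140-110118389, minus strand: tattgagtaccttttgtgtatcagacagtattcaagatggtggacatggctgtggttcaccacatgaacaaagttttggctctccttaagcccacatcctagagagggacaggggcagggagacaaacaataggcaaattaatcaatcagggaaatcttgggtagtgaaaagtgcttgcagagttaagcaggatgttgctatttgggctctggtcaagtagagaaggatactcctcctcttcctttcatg
MALL promoter 2, chr2:110115823-110116072, minus strand: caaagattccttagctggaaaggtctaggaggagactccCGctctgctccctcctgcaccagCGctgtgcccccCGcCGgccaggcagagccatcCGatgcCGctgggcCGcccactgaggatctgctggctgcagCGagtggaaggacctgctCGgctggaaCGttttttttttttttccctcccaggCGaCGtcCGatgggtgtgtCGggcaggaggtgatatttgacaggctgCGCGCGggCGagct
PLLP, chr16:57284673-57284922, minus strand: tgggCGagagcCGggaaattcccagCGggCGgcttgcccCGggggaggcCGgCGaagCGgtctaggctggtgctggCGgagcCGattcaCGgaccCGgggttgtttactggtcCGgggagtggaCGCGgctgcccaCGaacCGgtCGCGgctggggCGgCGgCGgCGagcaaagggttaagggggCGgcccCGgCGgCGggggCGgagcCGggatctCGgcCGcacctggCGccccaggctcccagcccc
The upstream part held 26 CpG for MAL, 0 for MALL promoter 1, 18 for MALL promoter 2 and 32 for PLLP. Over the whole window of 300 bases, MAL had 33 CpG at a GC content of 75% and an observed to expected ratio of 0.78, and 17.2% of the 35116 RefSeq promoters had at least as many. PLLP had 36 CpG at 75.3% GC and a ratio of 0.87, with 12.7% of promoters at or above it. MALL promoter 1 had no CpG at 44.3% GC, whereas MALL promoter 2 had 24 at 65.7% GC and a ratio of 0.74, with 33.9% of promoters at or above it. The motif searched was CG, which reads the same on both strands, and 96.0% of all windows held at least 1. The median window held 14 CpG, with quartiles of 4 and 28. MAL, detected on 1 array, and PLLP, detected on all 8, thus both had promoters in the upper quartile of CpG number. The methylation of these promoters was not analysed here.

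The signals below are log2 intensities minus the array's 75th percentile over its non-control probes, so that 0 is that percentile and a step of 1 is a doubling. A probe is called well above background where the scanner software set that flag. The 75th percentile lay between intensities of 328 and 527, the share of probes called well above background per array between 63.2% and 68.2%, and saturation did not occur. Slide 1 held the empty vector and TET1-CDwt arrays and slide 2 those of the MBD fusions, so slide and construct cannot be told apart where a fusion is compared with empty vector, whereas TET1-CDwt against empty vector and MBD-TET1-CDwt against MBD-TET1-CDmut lie within a slide. All 12 HEK293T markers (among them VIM, KRT8, PAX2 and LIN28B) were well above background on all 8 arrays. One of them, NEFM, a neurofilament subunit, was counted at 2-fold in MBD-TET1-CDwt, where its mean was below that of empty vector (difference -1.09, limma adjusted p = 0.85) and below that of MBD-TET1-CDmut (difference -1.16, limma adjusted p = 0.781). It was 0.32 in MBD-TET1-CDwt #3 and between 2.29 and 3.23 on the other 7 arrays, so that the count rested on #3, without which the differences were 0.01 and -0.07. Over all named genes, 0.842% and 1.04% were counted as at least 2-fold lower in these 2 comparisons. The probes of TET1, whose catalytic domain was introduced, averaged -1.24 and 2.78 in empty vector. The TET1 averages were -0.80 and 2.73 with MBD-TET1-CDmut, -1.17 and 2.72 with TET1-CDwt and -1.49 and 2.79 with MBD-TET1-CDwt. Since the part of the transcript they cover is not given in the sources used here, they do not check the constructs.

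MAL gave its highest signals in the active fusion. On the normalized log2 scale it was -5.34 in MBD-TET1-CDwt #3 and -5.20 in #10 of that construct. It was -6.79 and -6.12 in empty vector #1 and #2. Both MBD-TET1-CDwt clones therefore lay above both vector clones. MAL was -6.26 in TET1-CDwt #2 and -7.11 in TET1-CDwt #5. It was -6.54 in MBD-TET1-CDmut #9 and -7.60 in MBD-TET1-CDmut #10. MBD-TET1-CDwt #10 was the only one of the 8 arrays on which MAL was well above background. Ordered by mean, MBD-TET1-CDwt was at -5.27 ± 0.10 (SD, n = 2), followed by empty vector at -6.46 ± 0.47, TET1-CDwt at -6.68 ± 0.60 and MBD-TET1-CDmut at -7.07 ± 0.75 (SD, n = 2 each). MBD-TET1-CDwt did not overlap with its neighbour in this order, while the other neighbours overlapped.

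The log2 difference of MAL between MBD-TET1-CDwt and empty vector was 1.18 (standard error 0.46), a measured ratio of 2.27. No vector array was well above background. With each vector array set at its floor, which is the lowest signal well above background on that array, or the probe's own value if higher, the ratio was 1.56. It is no bound, because 1 of the 2 MBD-TET1-CDwt arrays, #3, was itself not well above background and entered at its measured value. In MBD-TET1-CDmut #10 the error of the MAL spot was about as large as its intensity, so the values against this construct rest in part on a spot without a clear signal. Against MBD-TET1-CDmut, within slide 2, the difference was 1.80 (standard error 0.46), or 1.27 without #10 of that construct. The measured ratio was 3.47, and the ratio to the floor was 1.20, with the same limit. It is smaller there although the measured difference is larger, since the lowest signal well above background lay at -5.53 on both MBD-TET1-CDmut arrays against -5.82 and -6.01 on the vector arrays. MAL differed from empty vector by -0.61 in MBD-TET1-CDmut and by -0.23 in TET1-CDwt, and in both the clones overlapped with the vector clones.

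The signal of MAL was close to the background throughout. Before scaling, its intensity was 8.64 ± 2.18 in MBD-TET1-CDwt #3 and 8.88 ± 1.91 in #10, where the error is that of the scanner software for 1 spot. The next highest were 6.87 ± 2.09 in TET1-CDwt #2 and 6.41 ± 1.80 in empty vector #2. The error ranges of these 4 intensities overlapped, and their distance on the normalized scale includes the 75th percentile, which was 350 and 328 on the MBD-TET1-CDwt arrays but 527 on TET1-CDwt #2 and 447 on empty vector #2. The remaining intensities were 3.19 ± 1.57 in empty vector #1, 3.32 ± 1.85 in TET1-CDwt #5, 3.58 ± 1.81 in MBD-TET1-CDmut #9 and 2.01 ± 2.0 in #10. The software called MAL positive and significant against its local background on 7 of the 8 arrays, all but MBD-TET1-CDmut #10, which is a weaker condition than well above background.

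The pattern of MAL was read against other dim probes, as a description and no test, since the family was selected on these values. Of the 10376 other probes that were not well above background in empty vector and had a value on all 8 arrays once outlier-flagged spots were removed, 5.09% were higher in MBD-TET1-CDwt by at least as much as MAL, and their median difference was 0.37. Both MBD-TET1-CDwt arrays lay above both vector arrays for 59.4% of them, so that this order by itself was common among dim probes of these slides. Within slide 2 the median difference of the 11682 probes not well above background in MBD-TET1-CDmut was 0.03, 1.51% of them were higher in MBD-TET1-CDwt by at least as much as MAL, and for 20.1% both MBD-TET1-CDwt arrays lay above both MBD-TET1-CDmut arrays. The 2 MBD-TET1-CDwt arrays were the highest of the 8 for 6.1% of all probes, and for 8.81% of the 10713 probes that were well above background on at most 1 array.

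**Figure D1:**
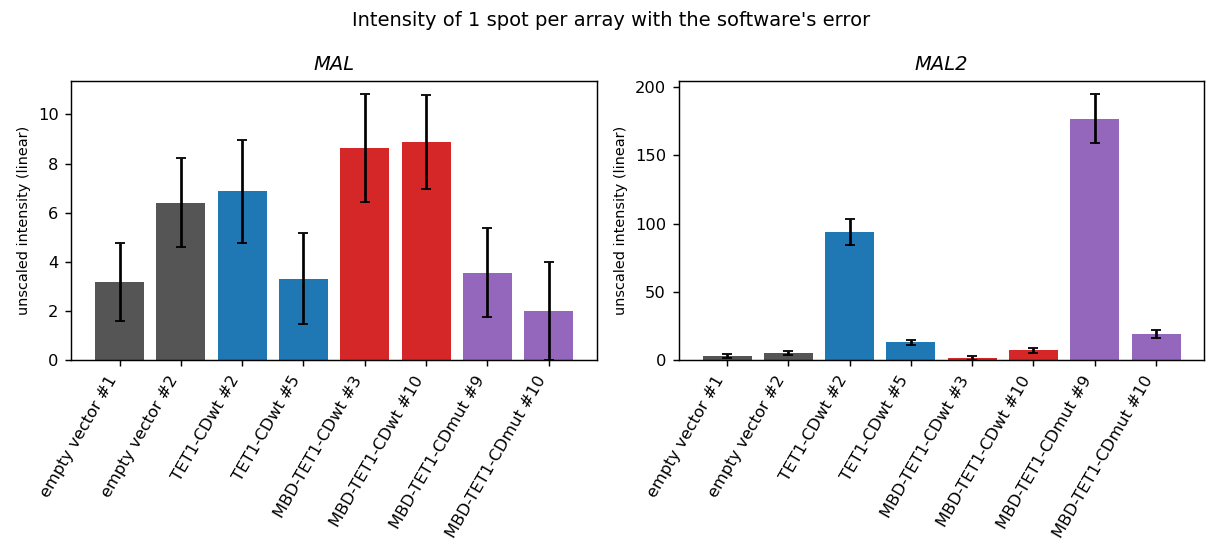
Intensity of the MAL and MAL2 spots before scaling between arrays (y axes, linear and starting at 0, with different ranges) on each of the 8 arrays (x axis). Bars are 1 spot each and the error bars are the error given by the scanner software. MAL stays below 10 on every array, whereas MAL2 reaches 176.9 in MBD-TET1-CDmut #9 and 94.1 in TET1-CDwt #2.

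MAL2 showed another distribution, with signal in the untargeted domain and in the inactive fusion. It was -2.48 in TET1-CDwt #2 and -5.12 in TET1-CDwt #5. It was -0.91 in MBD-TET1-CDmut #9 and -4.32 in MBD-TET1-CDmut #10. On these 4 arrays MAL2 was well above background, and on the other 4 it was not. MAL2 met the weaker condition, positive and significant against its local background, on every array but MBD-TET1-CDwt #3. It was -6.65 and -6.41 in empty vector #1 and #2. It was -7.70 in MBD-TET1-CDwt #3 and -5.47 in #10 of that construct. Each TET1-CDwt and MBD-TET1-CDmut clone lay above every clone of empty vector and MBD-TET1-CDwt. The order of the means was MBD-TET1-CDmut at -2.62 ± 2.41, TET1-CDwt at -3.80 ± 1.86, empty vector at -6.53 ± 0.17 and MBD-TET1-CDwt at -6.59 ± 1.58 (SD, n = 2 each). The first pair and the last pair in this order overlapped, and TET1-CDwt did not overlap with empty vector. None of the other 10392 probes that were not well above background in empty vector, here with those that lack a value on some array, had the same detection pattern, that is, well above background on both TET1-CDwt and both MBD-TET1-CDmut arrays and on no MBD-TET1-CDwt array. Since the pattern was taken from the flags of MAL2 itself, this count is a description and no test.

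Both MBD-TET1-CDmut arrays were well above background, so that the floor of the vector arrays gives a bound: the mean of MAL2 exceeded that of empty vector by at least 9.83-fold, with a measured log2 difference of 3.91 (standard error 1.41), and 0.359% of the named genes were counted as at least 2-fold higher in this comparison and 0.0359% as at least 5-fold higher. In TET1-CDwt it exceeded that of empty vector by at least 4.33-fold, with a measured log2 difference of 2.73, and 0.298% of the named genes were counted as at least 2-fold higher there. Against MBD-TET1-CDwt, within slide 2, MBD-TET1-CDmut was at least 7.47-fold higher, with a measured log2 difference of -3.97 for MBD-TET1-CDwt minus MBD-TET1-CDmut, and 1.04% of the named genes were counted as at least 2-fold lower and 0.0616% as at least 5-fold lower in MBD-TET1-CDwt. MBD-TET1-CDwt differed from empty vector by -0.06, with no array of either group well above background, so no fold is given. MAL2 was the 1 member of 4 that reached the 2-fold count in these 3 comparisons, and no member reached it in MBD-TET1-CDwt against empty vector, where 1.24% of the named genes were counted as higher and 0.842% as lower. The share counted in the direction no member took was 0.277% lower in MBD-TET1-CDmut, 0.293% lower in TET1-CDwt and 1.27% higher in MBD-TET1-CDwt against MBD-TET1-CDmut. The contrasts against empty vector share its 2 arrays. Of the 10376 dim probes, 0.00964% were higher than in empty vector by at least as much as MAL2 in MBD-TET1-CDmut and 0.125% in TET1-CDwt, which are 1 and 13 probes. Of these dim probes, 9137 were well above background on no array and could hardly show such a difference. MAL2 was selected on these same signals, so the 2 shares are a description and no test. The order alone, with both arrays of the construct above both vector arrays, was found for 58.6% of the dim probes in MBD-TET1-CDmut, across the slides, and for 5.46% in TET1-CDwt, within slide 1. Since each line is a bulk sample, a smaller share of MAL2-positive cells and less MAL2 RNA per cell cannot be told apart.

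The sister clones of TET1-CDwt and of MBD-TET1-CDmut differed widely in MAL2. TET1-CDwt #2 was 2.63 higher than #5 on the log2 scale, a 6.20-fold ratio. MBD-TET1-CDmut #9 was 3.41 higher than #10, a 10.6-fold ratio. Gaps of that size were rare: 0.156% of the 21824 probes well above background in both TET1-CDwt clones differed by as much, and 0.00473% of 21159 in MBD-TET1-CDmut, which is 1 other probe, where the median gaps were 0.25 and 0.16. MAL2 was selected on these same signals, so these shares too are a description and no test. In MBD-TET1-CDwt #10 was 2.23 above #3, but neither was well above background, and in #3 the error of the spot was about as large as its intensity. The intensities before scaling were 176.9 ± 17.8 in MBD-TET1-CDmut #9 and 94.1 ± 9.58 in TET1-CDwt #2, against 19.4 ± 2.66 and 13.2 ± 2.12 in their sister clones (error of the software for 1 spot). On the remaining arrays they were 3.52 ± 1.41 and 5.25 ± 1.59 in empty vector #1 and #2, 1.68 ± 1.67 in MBD-TET1-CDwt #3 and 7.39 ± 1.71 in #10. Without MBD-TET1-CDmut #9 the bound against empty vector dropped from 9.83-fold to 3.02-fold, and without #10 it was 32.0-fold. Within slide 2 the bound of 7.47-fold was 2.29-fold without #9 and 24.3-fold without #10. Without TET1-CDwt #2 the bound was 1.74-fold, so that MAL2 no longer reached the 2-fold count, and without #5 it was 10.8-fold.

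MALL was not well above background on any array. Its signals were -7.73 and -7.94 in empty vector #1 and #2. They were -7.94 in TET1-CDwt #2 and -6.52 in #5. They were -7.39 in MBD-TET1-CDwt #3 and -6.95 in #10. In MBD-TET1-CDmut #9 and #10 they were -7.47 and -7.49. TET1-CDwt #5 was thus the highest of the 8. By mean the order was MBD-TET1-CDwt at -7.17, TET1-CDwt at -7.23, MBD-TET1-CDmut at -7.48 and empty vector at -7.84 (n = 2 each), where TET1-CDwt overlapped with both of its neighbours and MBD-TET1-CDmut did not overlap with empty vector. On 6 of the 8 arrays the error of the spot was about as large as its intensity, and TET1-CDwt #5 and MBD-TET1-CDwt #10 were the arrays on which the software called it positive and significant. The 6 arrays include all those of empty vector and MBD-TET1-CDmut, so the order of these groups cannot be read as a difference in MALL. The measured difference between MBD-TET1-CDwt and empty vector was 0.67, and 13.4% of the dim probes differed by at least as much. No fold is given for MALL.

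PLLP was well above background on all 8 arrays, and its clones overlapped between all 4 constructs. It was -3.55 and -4.31 in empty vector #1 and #2. It was -3.49 in TET1-CDwt #2 and -4.09 in #5. It was -4.28 in MBD-TET1-CDwt #3 and -3.34 in #10. Both the highest and the lowest sample thus belonged to constructs whose other clone lay toward the other end of the range. In MBD-TET1-CDmut it was -3.74 in #9 and -3.60 in #10, inside the range of each other construct. The means ran from -3.67 ± 0.10 in MBD-TET1-CDmut over -3.79 ± 0.43 in TET1-CDwt and -3.81 ± 0.66 in MBD-TET1-CDwt to -3.93 ± 0.54 in empty vector (SD, n = 2 each), and all neighbours overlapped. From empty vector PLLP differed by 0.12 for MBD-TET1-CDwt, 0.27 for MBD-TET1-CDmut and 0.15 for TET1-CDwt, and MBD-TET1-CDwt differed from MBD-TET1-CDmut by -0.15 (standard error 0.41 each). The gap between clones was 0.14 for MBD-TET1-CDmut, 0.60 for TET1-CDwt, 0.76 for the vector clones and 0.94 for MBD-TET1-CDwt, and 56%, 15.9%, 8.43% and 11.5% of probes had gaps at least as large. Its intensities before scaling lay between 18.0 ± 2.76 in MBD-TET1-CDwt #3 and 47.0 ± 5.14 in TET1-CDwt #2.

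The partners of MAL and MAL2 were measured on the same arrays. limma was fitted to all 8 arrays over the 22530 probes that passed the background flag on both arrays of some construct. Of the 8 partner genes 7 were tested, with 12 probes, and limma called 0 of the 12 at an adjusted p under 0.05 in each of the 4 comparisons. On simulated data the same fit called 6 of 50 changes of 2-fold, so 0 calls do not show that the partners were unchanged. At an unadjusted p under 0.05 the count was 0 against empty vector in every construct and 1 for MBD-TET1-CDwt against MBD-TET1-CDmut. INF2, a formin that acts with CDC42 in MAL-dependent transport, supplied that probe, at 0.55 and 0.18 in MBD-TET1-CDwt #3 and #10 and -0.31 and -0.63 in MBD-TET1-CDmut #9 and #10, a difference of 0.84 (standard error 0.22, limma adjusted p = 0.538). The other INF2 probes differed by 0.06 and -0.06 in that comparison, so the 3 probes of the gene disagreed. LCK, the T cell kinase that MAL carries to the membrane, was not well above background with either of its probes on any array.

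The TPD52 proteins, which bind MAL2, were well above background on all 8 arrays, unlike MAL2. TPD52 was between -0.61 and 0.30 on the 8 arrays and differed from empty vector by -0.09 in MBD-TET1-CDmut, -0.03 in TET1-CDwt and 0.18 in MBD-TET1-CDwt (standard error 0.29, limma adjusted p = 1, 1 and 0.944). TPD52L2 stayed between -1.41 and -0.95, with differences from empty vector of -0.14 in both MBD fusions and 0.07 in TET1-CDwt (limma adjusted p = 0.933, 1 and 1). Both probes of TPD52L1 gave differences from empty vector between -0.21 and 0.29. CDC42, the small GTPase upstream of INF2, differed from empty vector by at most 0.12 in either direction with 2 of its probes and by -0.46 to 0.01 with the third. CD59, a lipid-anchored cargo of MAL-dependent transport, differed by -0.08 to 0.09 from empty vector. The apical mucin MUC1 differed by -0.07 to 0.29 with 1 probe, and its other probe was not well above background on any array. None of these differences passed the test, and each was smaller than the bound of MAL2.

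Beyond the partners, 6 more lists covered the settings in which MAL proteins act, and the 7 lists together had 163 probes in the fit. limma called 0 of the 163 in each comparison, against backgrounds of 0.102% of all tested probes called higher and 0.0133% lower in MBD-TET1-CDwt, 0% in MBD-TET1-CDmut and in TET1-CDwt, and 0.0888% higher and 0.0133% lower for MBD-TET1-CDwt against MBD-TET1-CDmut. As for the partners, 0 calls do not show that the list genes were unchanged. At an unadjusted p under 0.05 the count was 9 of 163 (5.52%) in MBD-TET1-CDwt, where 6.6% of all probes passed, 6 (3.68%) in MBD-TET1-CDmut, where 2.68% did, 3 (1.84%) in TET1-CDwt, where 2.5% did, and 15 (9.2%) for MBD-TET1-CDwt against MBD-TET1-CDmut, where 6.84% did. The median of the 163 differences lay between -0.03 and 0.01 in the 4 comparisons, and that of all tested probes between -0.03 and 0.01.

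Among the MARVEL-domain relatives, the genes closest in fold to the MAL family, 19 of 22 genes were tested with 30 probes. Their median difference was 0.06 in MBD-TET1-CDwt, 0.10 in MBD-TET1-CDmut, 0.06 in TET1-CDwt and -0.03 for MBD-TET1-CDwt against MBD-TET1-CDmut. One relative was counted at 2-fold: OCLN, the tight junction protein occludin, at -2.67 and -1.67 in MBD-TET1-CDwt #3 and #10 against -1.18 and -1.15 in MBD-TET1-CDmut #9 and #10 with its first probe, a difference of -1.01 (standard error 0.31, limma adjusted p = 0.628). Its second probe gave -1.08 (limma adjusted p = 0.603). Both OCLN probes were lowest in MBD-TET1-CDwt #3, without which the differences were -0.51 and -0.58 and neither probe was counted. Over all named genes, 1.04% were counted as at least 2-fold lower in MBD-TET1-CDwt against MBD-TET1-CDmut.

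Of the epithelial and transport lists, 31 of 35 apical transport genes and 22 of 28 apical and junctional genes were tested. VAMP8, a SNARE protein of apical exocytosis, was 1.68 and 0.11 in empty vector #1 and #2. It was 3.39 and 2.41 in TET1-CDwt #2 and #5 and 2.41 and 2.56 in MBD-TET1-CDwt #3 and #10. It was 1.47 and 0.92 in MBD-TET1-CDmut #9 and #10, inside the range of empty vector. The VAMP8 mean of MBD-TET1-CDwt was above that of MBD-TET1-CDmut by 1.28 (limma adjusted p = 0.731), while that of MAL2 lay below it. Its difference from empty vector was 2.0 in TET1-CDwt (standard error 0.54, limma adjusted p = 1) and 1.59 in MBD-TET1-CDwt (limma adjusted p = 0.691). EPCAM, an epithelial adhesion protein, was -0.23 in MBD-TET1-CDwt #10 and between -4.46 and -2.47 on the other 7 arrays. Its difference of 2.05 between MBD-TET1-CDwt and empty vector (standard error 0.98, limma adjusted p = 0.797) thus rested on #10, since #3 at -3.14 lay between the vector clones. The 2-fold count of these lists was VAMP8 and EPCAM in MBD-TET1-CDwt against empty vector and against MBD-TET1-CDmut, VAMP8 in TET1-CDwt, and none in MBD-TET1-CDmut. Over all named genes, 1.24% were counted higher in MBD-TET1-CDwt against empty vector, 1.27% against MBD-TET1-CDmut and 0.298% in TET1-CDwt. Without empty vector #2 VAMP8 was no longer counted in MBD-TET1-CDwt against empty vector (difference 0.80, 1.74-fold) and was still counted in TET1-CDwt (1.21, 2.32-fold). Without MBD-TET1-CDwt #10 EPCAM was counted in neither comparison, with 1.51-fold against empty vector and 1.10-fold against MBD-TET1-CDmut.

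Of the membrane lists, 14 of 16 raft and caveola scaffolds and 21 of 22 genes of sulfatide and glycosphingolipid synthesis were tested. None of them was counted at 2-fold in the main setting. The synthesis gene FA2H was counted in MBD-TET1-CDmut against empty vector under quantile and under median scaling. The median differences were -0.06, -0.06, -0.05 and -0.10 for the scaffolds and -0.10, -0.07, -0.07 and -0.06 for the lipid enzymes in MBD-TET1-CDwt, MBD-TET1-CDmut and TET1-CDwt against empty vector and in MBD-TET1-CDwt against MBD-TET1-CDmut. Of the myelin proteins 10 of 22 were tested, with medians of 0.34, 0.20, 0.04 and 0.05 in the same order. Only 12 of their 33 probes were in the fit. Probes not well above background in empty vector had a median difference of 0.37 with the active and 0.35 with the inactive MBD fusion, and the part of this shift in the myelin medians was not tested. OLIG1, a transcription factor of the oligodendrocyte lineage, was the 1 myelin gene counted at 2-fold, at -5.00 and -4.34 in empty vector #1 and #2 and -3.08 and -3.85 in MBD-TET1-CDmut #9 and #10 (difference 1.21, standard error 0.34, limma adjusted p = 1). It was not counted without empty vector #1 (1.84-fold), without MBD-TET1-CDmut #9 (1.77-fold) or with the local background subtracted at an offset of 50 (1.34-fold).

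Markers of 3 cell types that are rich in MAL proteins were examined on the same arrays. Of 9 oligodendrocyte and Schwann cell markers, 2 (MOG and MAG) were well above background on all arrays, whereas MOBP, OPALIN and PRX were not on any array. The log2 of their summed level lay between -1.11 and -0.83 on the vector arrays and between -0.88 and -0.86 on those of TET1-CDwt. It lay between -1.05 and -0.93 with MBD-TET1-CDmut and between -1.03 and -0.87 with MBD-TET1-CDwt. Of 11 T cell markers, 5 (PTPRC, CD3D, CD4, CD8A and LAT) were well above background on all arrays and CD3E, LCK and ZAP70 on none. The summed levels of the T cell markers lay between 3.46 and 3.64 over all 8 arrays. Of 9 markers of kidney tubules, 3 (UMOD, LRP2 and AQP1) were well above background on all arrays and SLC12A1, SLC12A3, AQP2 and CDH16 on none. Their summed levels lay between -0.28 and -0.07 in TET1-CDwt and between -0.01 and 0.42 in the other groups.

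The genes whose signal ran most closely with a member were ranked by Pearson's r over the 8 arrays, among 24933 probes that were well above background on at least 1 array. With so few arrays the highest of so many values is large by selection, and the probes share the arrays and their scaling. For MAL they were CT47A11 (r = 0.933, well above background on 1 array), ZFYVE21 (r = 0.931) and HLA-DPB1 (r = 0.931, on 2 arrays). CT47A11 was at -5.11 in MBD-TET1-CDwt and between -7.10 and -6.80 in the other groups on average. For MAL2 they were TMEM30A (r = 0.968), TRIM58 (r = 0.966) and HIP1R (r = 0.964). TRIM58 averaged -4.61 for TET1-CDwt and -4.19 for MBD-TET1-CDmut against -6.07 in empty vector and -6.14 in MBD-TET1-CDwt, and was well above background on 3 arrays, whereas TMEM30A and HIP1R were detected on all 8 and moved over a range of less than 1. For PLLP they were SIPA1 (r = 0.976), PLCG2 (r = 0.970) and the myelin gene MAG (r = 0.967), of which MAG ranged from -3.30 to -2.84 on the 8 arrays.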

How the data were processed

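The authors prepared RNA from 8 stable HEK293T cell lines and hybridized Cy3-labelled cRNA to single-colour Agilent 4x44K v2 arrays. The deposited intensity values are the processed signals of Agilent Feature Extraction (version 10.7.3.1 per the file headers, 9.5.1 per the labels), background-subtracted but not scaled from array to array. The deposited series table repeats these intensities, with 0 cells that differ. The authors' flag columns mark spots well above background, positive and significant spots, outliers and controls, and give an error per spot.

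Controls and outlier-flagged spots (213 to 269 on each array) were removed. Intensities were put on the log2 scale, each array's 75th percentile was subtracted, and repeated spots were averaged. A probe counted as well above background where more than 50% of its spots did. Of 34127 probes, 25422 (74.5%) were named through the RefSeq gene table of GRCh38.p14. RefSeq also gave the promoter windows, and MAL2 had no entry among them. limma (version 3.58.1, R 4.3.3) was fitted with 4 group means, 4 residual degrees of freedom and Benjamini-Hochberg adjustment over 22530 probes, and its standard errors are those given. Genes were counted by size at 2-fold and 5-fold where the higher group had the background flag on both of its arrays. The labels describe the clones of a construct as independent transformants, so the spread is that between clones, and 2 arrays per group limit the precision. Python 3.11.15, pandas 2.3.3 and matplotlib 3.10.9 were used for promoters and figures. The fit was tested on simulated data, with 50 probes changed at each size. At an adjusted p under 0.05 limma recovered 6 of 50 at 2-fold, 40 at 5-fold, 43 at 10-fold and 46 at 20-fold, with 3 false calls.

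The members, the 7 gene lists and the marker lists were chosen with earlier results of these data known. Genes named are the members, all partners, list genes called by limma or counted at 2-fold, the 3 genes with the highest correlation to each detected member, TET1, and markers. Alternatives were other background corrections, scalings, floors, filters, fits and thresholds, and leaving out each clone. The study reported by RT-PCR that MAL was reactivated only in MBD-TET1-CDwt #3 and #10, and described its array signal as significantly higher there. By bisulfite sequencing it reported demethylation at MAL in MBD-TET1-CDwt #10 but not in TET1-CDwt #2 or MBD-TET1-CDmut #9. The bisulfite sequencing and RT-PCR of the study were not analysed here. The result for 1 marker gene is not reported here.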

Additional observations from a re-analysis of the deposited data

How the results depend on the processing

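MAL in MBD-TET1-CDwt and MAL2 in MBD-TET1-CDmut, in TET1-CDwt and between the fusions kept their direction under every alternative run, and outside the settings that leave out a clone, 64 of 80 recomputed member values moved by less than the spread between clones. Some of the 64 could hardly move: no member spot was flagged as an outlier, and the floor did not touch PLLP. The spread was also wide for MAL2, at 1.32 to 2.04 in these comparisons. A change from -3.97 to -2.90 between the fusions, with dim signals at the floor, thus lay within it. Subtracting the local background with an offset of 50 (the minimum correction), chosen after seeing the data, reduced the log2 difference of MAL to 0.34 against empty vector and 0.25 against MBD-TET1-CDmut, that of MAL2 to 1.27 in MBD-TET1-CDmut, 0.51 in TET1-CDwt and -1.09 between the fusions, and that of MALL to 0.31 in MBD-TET1-CDwt. With dim signals at the floor, MAL differed by 0.64 from empty vector and 0.26 from MBD-TET1-CDmut, and MALL by 0.38. Quantile normalization gave 0.36 for MALL. The offset and the floor by construction compress differences of dim probes. MAL2 reached the 2-fold count under 12 of 12 settings in MBD-TET1-CDmut and between the fusions and under 8 of 12 in TET1-CDwt, where the minimum correction gave 1.42-fold and the agreement of all clones 1.63-fold, and where it also missed the count without TET1-CDwt #2 (1.74-fold) and at the 5-fold threshold. The 12 settings include the main one and that without a floor, which cannot lose a counted gene. Between the fusions the minimum correction gave 2.04-fold and the agreement of all clones 2.22-fold.

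Leaving out 1 clone at a time, MAL2 ranged from 2.21 to 5.62 in MBD-TET1-CDmut, from 1.41 to 4.05 in TET1-CDwt, from -1.17 to 1.06 in MBD-TET1-CDwt and from -5.67 to -2.27 between the fusions, and MAL from 0.85 to 1.52 against empty vector and from 1.27 to 2.32 between the fusions, while PLLP changed sign in each comparison, for example from -0.35 to 0.59 in MBD-TET1-CDwt. List probes called by limma numbered 0 under every setting that kept both clones of the constructs compared. Without a clone of a compared construct, that construct was left with 1 array, so the calls of those fits are not given. List genes counted at 2-fold, which were 2, 1, 1 and 3 in MBD-TET1-CDwt, MBD-TET1-CDmut, TET1-CDwt and between the fusions, ranged from 3 to 9, 1 to 5, 2 to 7 and 4 to 15 without a clone. The lists held 152 genes with a probe. Over all named genes, 1.24% were counted higher and 0.842% lower in MBD-TET1-CDwt. These shares were 0.359% and 0.277% in MBD-TET1-CDmut, 0.298% and 0.293% in TET1-CDwt, and 1.27% and 1.04% between the fusions. They were not computed without a clone. The count of list genes was 0 in all 4 comparisons where every clone had to agree or at 5-fold. In MBD-TET1-CDmut it was 2 (OLIG1 and FA2H) under quantile and median scaling and 0 under the minimum correction, which left 1 between the fusions. The cause was not tested.

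The normexp correction could not be fitted, since its estimate of the background mean was -1320 on empty vector #2 and -240 on MBD-TET1-CDmut #10 against -4.21 to 3.51 elsewhere, and it was not run. No paired analysis was possible because the clone numbers label colonies within a construct and pair no clones between constructs. The dim signals of MAL, MALL and the vector arrays limit what can be read from them.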
